A study of Capra hircus with 6 samples.

Results

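Thyroid hormone acts in a cell in several steps. Transporters carry it across the membrane, deiodinases activate or inactivate it, and the nuclear receptors THRA and THRB, paired with retinoid X receptors, switch target genes with the help of corepressors and coactivators. The same hormone also times reproduction in seasonal mammals. Melatonin from the pineal gland acts on the pars tuberalis of the pituitary, where in sheep and mice the coactivator EYA3 takes part in switching on thyrotropin; thyrotropin then acts through its receptor TSHR on tanycytes of the hypothalamus, where DIO2 rises and DIO3 falls. The account below asks how the genes of this route were expressed in the pineal gland itself and whether their levels differed between prepuberty and puberty.

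The genes are a list of names, with no threshold on a measured value: THRA, THRB, DIO2, DIO3, TSHR, SLC16A10, SLCO1C1, EYA3 and VMO1. Of these 9 symbols, 8 were found among the 28244 genes of the count table. No row carried the symbol of DIO3, which encodes the deiodinase that inactivates thyroid hormone, and it was not analysed here. The count filter kept 7 of the 8 for testing and left out TSHR. Both groups were untreated female goats (Capra hircus), 3 RNA libraries each: prepuberty, and puberty, which the study judged by an inflamed vulva and by mature follicles in the ovaries. The sources used here do not give breed, age, season or time of day. Whether each library came from its own goat is not stated either. P-values therefore measure only how far these libraries differ, and part of that spread may be technical. Library totals ran from 18864451 to 20971065 counts.

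All 12 pinealocyte markers were detected, with a summed level of 8790 to 9750 CPM (counts per 1e6 counts of the TMM-scaled total) in prepuberty and 9207 to 10830 CPM in puberty. Of 11 markers of the pituitary and pars tuberalis, 7 had a symbol in the tables. Among those, TSHB and POU1F1 had 0 counts in every library, and CGA, the subunit that thyrotropin shares with other hormones, had 2, 0 and 1 counts in prepuberty and 0 in each puberty library. The list's summed level, mostly POMC, was 10.8 to 13.4 CPM in prepuberty and 16.5 to 67.4 CPM in puberty. Puberty replicate 2 stood apart in choroid plexus markers, whose 6 measured genes summed to 10282 CPM there, against 524 and 273 CPM in the other puberty libraries and 113 to 385 CPM in prepuberty.

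None of the 7 tested genes was called in either direction at an adjusted p under 0.05 (edgeR's quasi-likelihood test, Benjamini-Hochberg over 16588 genes). Over all tested genes 11.5% were called, 5.85% higher and 5.64% lower in puberty. None of the 7 had an unadjusted p under 0.05 either, beside 4807 of all 16588 tested genes. DESeq2 and limma-voom also called 0 of the 7. Adjusted p-values ran from 0.173 to 0.695, and all 7 of the 95% intervals of the log2 fold change (puberty over prepuberty) held 0. Fold changes were positive for 3 genes and negative for 4, with a median of -0.20 beside 0.01 over all tested genes. The median of the 7 was -0.06 with offsets that remove a trend with gene length, and -0.12 without puberty replicate 2. The 95% intervals, and not the p-values, show how large a difference the data leave possible for each gene.

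By level per length the genes fell into a few tiers. On the authors' FPKM scale (counts per kilobase of listed gene length, scaled by one constant per library), THRA had a mean of 116 FPKM over the 6 libraries and stood above 94.0% of tested genes. EYA3 followed at 16.6 FPKM, THRB at 11.1 FPKM and SLCO1C1 at 2.47 FPKM. DIO2 at 0.808, VMO1 at 0.699 and SLC16A10 at 0.687 FPKM stood above only 7.85%, 6.84% and 6.70% of tested genes, and TSHR was at 0.0207 FPKM. THRA did not overlap EYA3 in any library, and THRB did not overlap SLCO1C1. EYA3 and THRB overlapped across libraries, although EYA3 was the higher within each of the 6. DIO2, VMO1 and SLC16A10 overlapped one another, and their order is not resolved. DIO2 has a listed length of 977 nt and a listed span of 9076 nt, against a span of 15309 nt in the RefSeq goat annotation. Its counts and its level per length therefore depend on the listed gene model. DIO1, the other deiodinase able to activate the hormone, was as low, at 0.742 FPKM.

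**Figure D1:**
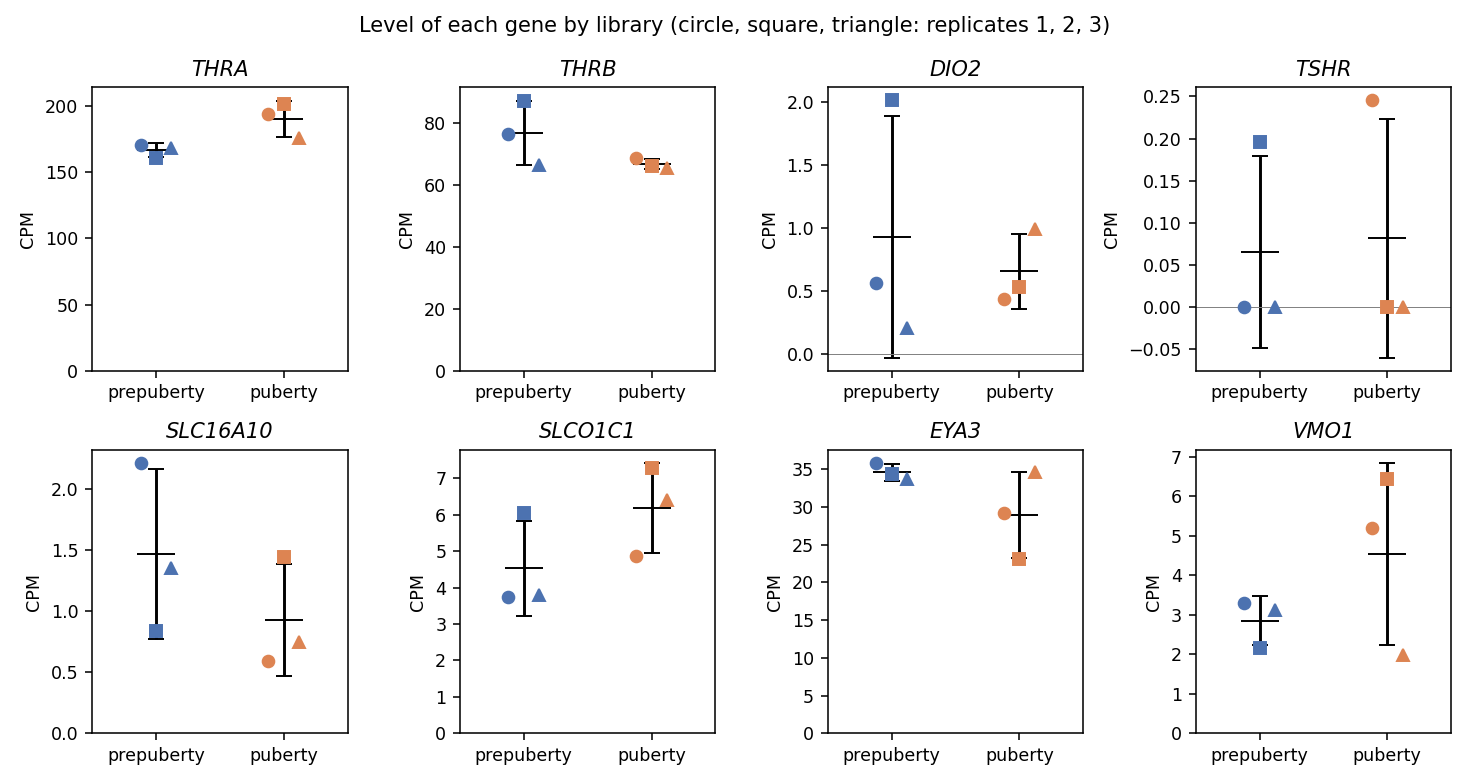
Level in CPM of the 8 measured genes in each library, by group; circle, square and triangle mark replicates 1, 2 and 3, and the black bars give the mean and SD of 3 libraries. The groups are apart for THRA and overlap for the other 7; DIO2 in prepuberty replicate 2, at 2.01 CPM, lies above the other 5 libraries.

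The receptors were the best measured genes of the set. THRA, on chromosome 19 (40025345 to 40038316, plus strand; coordinates are those of the authors' tables, which name no build), was at 171, 161 and 168 CPM in prepuberty and at 194, 202 and 176 CPM in puberty. It was the only one of the 7 whose groups did not overlap, as was true of 34.8% of all tested genes. The means were 167 ± 5.3 and 191 ± 14 CPM (SD, n = 3 per group), a log2 fold change of 0.19 (SE 0.09, 95% interval -0.00035 to 0.39, adjusted p = 0.173). A rise above 1.31-fold thus lay outside the interval. The 3' end of THRA overlaps, by 363 nt, that of NR1D1, the gene of a clock repressor on the opposite strand. The library kit does not mark the strand, so reads from that stretch cannot be assigned to either gene. NR1D1 counts were 3691, 4621 and 3888 before puberty and 5498, 5295 and 4577 at puberty, a log2 fold change of 0.34 (adjusted p = 0.0823). How much of the THRA value it carries was not tested.

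THRB, on chromosome 27 (3764600 to 4200125, minus strand), was at 76.3, 87.0 and 66.3 CPM in prepuberty and at 68.6, 66.0 and 65.4 CPM in puberty. The puberty libraries lay close together (SD 1.7 CPM, against 10.4 CPM in prepuberty), and prepuberty replicate 3 lay among them. The log2 fold change was -0.20 (SE 0.11, 95% interval -0.44 to 0.04, adjusted p = 0.255). It was -0.09 without prepuberty replicate 2 and -0.06 with offsets that remove the trend by which short genes were higher in puberty. THRA has a listed length of 1536 nt and THRB of 6403 nt. The listed span of THRA is 12972 nt, against 23622 nt in the RefSeq goat annotation. For THRB these spans are 435526 and 437024 nt. Levels per length, and the size of a ratio between these genes, therefore depend on the listed gene models.

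Set against each other within a library, which removes the library total but not a trend with gene length, THRA exceeded THRB per nt by 9.34, 7.70 and 10.6 times in prepuberty and by 11.8, 12.8 and 11.2 times in puberty. All 3 puberty ratios lay above all 3 prepuberty ratios. The difference was 0.38 on the log2 scale, or 1.30-fold, with an exact two-sided permutation p of 0.10, the smallest that 3 against 3 libraries can give (0.20 after Benjamini-Hochberg adjustment over 2 ratios). Leaving out single libraries gave differences of 0.26 to 0.49. With length-dependent offsets the log2 fold changes of THRA and THRB were 0.18 and -0.06, closer together than the 0.19 and -0.20 without them.

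Of the deiodinases DIO2, which converts thyroxine to the active triiodothyronine, lies on chromosome 10 (11609062 to 11618137, plus strand). Its counts were 11, 41 and 4 in the prepuberty libraries and 9, 10 and 20 in the puberty libraries. These are 0.566, 2.01 and 0.208 CPM, then 0.442, 0.536 and 0.992 CPM, so that prepuberty held both the highest and the lowest library. The log2 fold change of -0.50 had an SE of 0.74 and a 95% interval from -2.20 to 1.19 (adjusted p = 0.695). Its sign turned to 0.77 without prepuberty replicate 2. No direction can be read from so few counts. Summed markers of several cell types were also the highest of the prepuberty group in that library, at 5907 CPM over 9 astrocyte genes (4321 and 4480 CPM in the others) and 554 CPM over 10 endothelial genes (445 and 423 CPM). The same held for 7 fibroblast and meningeal genes, at 763 CPM (495 and 546 CPM in the others), and for 9 microglial genes, at 178 CPM (149 and 132 CPM). Other sums were the lowest of the prepuberty group there. Tanycyte and ependymal markers were at 42.6 CPM (47.7 and 62.3 CPM in the others). Choroid plexus markers were at 113 CPM, pinealocyte markers at 8790 CPM and pituitary markers at 10.8 CPM. In the puberty libraries, with DIO2 at 0.442 to 0.992 CPM, astrocyte sums were higher than in any prepuberty library, at 6338 to 6541 CPM. Microglial sums there were 164 to 287 CPM. Endothelial and fibroblast sums in puberty stayed below those of prepuberty replicate 2, at 430 to 523 and 414 to 655 CPM. Astrocytes are a known site of DIO2 in mammalian brain. The part of any of these cells in the DIO2 value was not tested. In bulk tissue, fewer cells of a type and less RNA per cell cannot be told apart.

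Among the transporters, SLCO1C1, a carrier of thyroxine found in brain endothelium and astrocytes, lies on chromosome 5 (87600764 to 87669986, minus strand). It was at 3.75, 6.04 and 3.79 CPM in prepuberty and at 4.86, 7.29 and 6.40 CPM in puberty. Prepuberty replicate 2 again stood above the other 2 of its group and reached into the puberty range. The log2 fold change was 0.45 (SE 0.27, 95% interval -0.16 to 1.05, adjusted p = 0.307), and 0.72 without that library (adjusted p = 0.137). The astrocyte markers summed to 4321 to 5907 CPM in prepuberty and 6338 to 6541 CPM in puberty. Of the 9 genes, 2 were called higher (ALDH1L1 and ALDOC), or 22.2% beside 5.85% of all tested genes. GFAP and ALDOC carried most of that sum, and 3 of the 9 had negative log2 fold changes (AQP4 -0.28, SLC1A2 -0.29 and GJA1 -0.16, none called). The endothelial markers overlapped, at 423 to 554 and 430 to 523 CPM, with 0 of 10 called, beside 11.5% of all tested genes. Their part in the SLCO1C1 value was not tested.

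SLC16A10, a transporter of aromatic amino acids and thyroid hormone on chromosome 9 (26496413 to 26607958, minus strand), was counted 43, 17 and 26 times in the prepuberty libraries and 12, 27 and 15 times in the puberty libraries. Its CPM values were 2.21, 0.834 and 1.35, then 0.589, 1.45 and 0.744, and the groups overlapped. The log2 fold change was -0.66 (SE 0.49, 95% interval -1.77 to 0.45, adjusted p = 0.41) and ran from -1.13 to -0.23 as single libraries were left out. SLCO1C1 exceeded SLC16A10 per nt by 1.36, 5.80 and 2.25 times in prepuberty and by 6.61, 4.04 and 6.89 times in puberty. These ratios overlapped between groups (log2 difference 1.12, exact two-sided permutation p = 0.20, also 0.20 after adjustment).

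**Figure D2:**
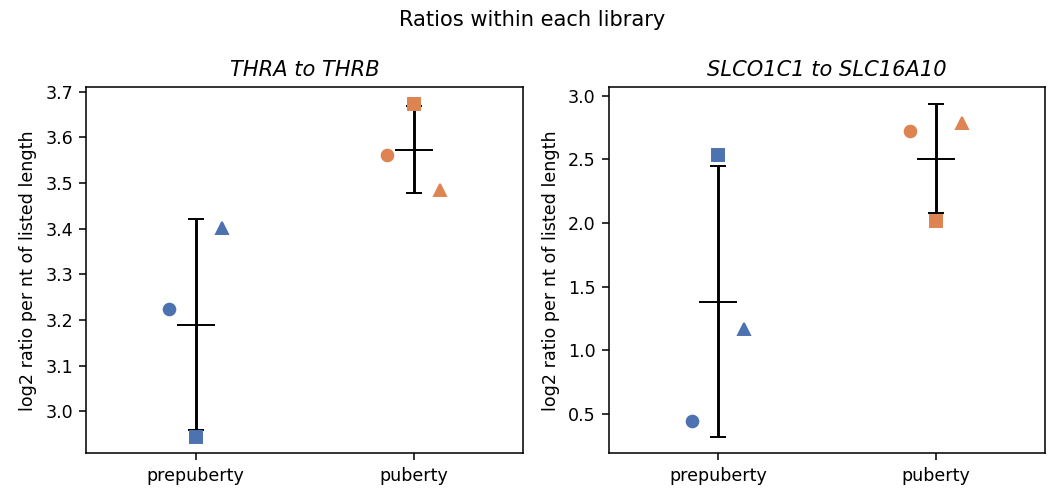
Log2 ratio per nt of listed length of THRA to THRB (left) and of SLCO1C1 to SLC16A10 (right) in each library; circle, square and triangle are replicates 1, 2 and 3, bars are mean and SD of 3 libraries, and the vertical axes do not start at 0. The THRA to THRB ratio is separated between groups, from 2.94 to 3.40 in prepuberty and from 3.49 to 3.67 in puberty, and the other ratio is not.

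TSHR, the thyrotropin receptor on chromosome 10 (10656946 to 10834001, minus strand), was near the limit of detection. It had 4 counts in prepuberty replicate 2, 5 counts in puberty replicate 1 and 0 in each of the other 4 libraries. A count of 0 allows up to 3 counts, or 0.147 to 0.161 CPM depending on the library. Summed by group, the level was 0.0677 CPM in prepuberty (exact Poisson 95% interval 0.0185 to 0.173) and 0.0845 CPM in puberty (0.0274 to 0.197); these intervals cover counting error only. No difference was detectable at this depth.

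EYA3, on chromosome 2 (10583022 to 10692918, minus strand), was at 35.8, 34.3 and 33.7 CPM in prepuberty. In puberty it was at 29.2 and 23.1 CPM in replicates 1 and 2 and at 34.6 CPM in replicate 3, which lay inside the prepuberty range. The SD was 1.1 CPM in prepuberty and 5.7 CPM in puberty. The log2 fold change was -0.26 (SE 0.14, 95% interval -0.58 to 0.07, adjusted p = 0.272). It was -0.12 without puberty replicate 2, the library rich in choroid plexus transcripts, and -0.40 without puberty replicate 3.

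EYA3 was the principal EYA gene of the tissue by level per length. EYA4, EYA1 and EYA2 were at 1.06, 0.791 and 0.413 FPKM over the 6 libraries, against 16.6 FPKM for EYA3. EYA proteins act with DNA-binding partners such as SIX5, which was at 4.77 FPKM with a log2 fold change of -0.34 (SE 0.18, adjusted p = 0.235). TEF, a factor that acts with EYA3 on the thyrotropin gene in mice, was at 36.1 FPKM with a log2 fold change of 0.12 (SE 0.16, adjusted p = 0.667). None of these genes was called.

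VMO1, named after a protein of the outer vitelline membrane of the hen's egg, lies on chromosome 19 (26379822 to 26385447, plus strand). It was at 3.29, 2.16 and 3.12 CPM in prepuberty and at 5.21, 6.43 and 1.98 CPM in puberty. The puberty libraries were thus split, with replicates 1 and 2 above and replicate 3 below every prepuberty library. The log2 fold change was 0.67 (SE 0.41, 95% interval -0.27 to 1.60, adjusted p = 0.323), 1.03 without puberty replicate 3 and 0.33 without puberty replicate 2. The listed gene model is uncertain, and with it the level per length and the place of VMO1 in the order of levels: its 5273 nt make up 93.7% of its span, so it hardly excludes introns, and the whole span lies inside that of TM4SF5 on the opposite strand, which had 4 to 8 counts in any library.

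**Figure D3:**
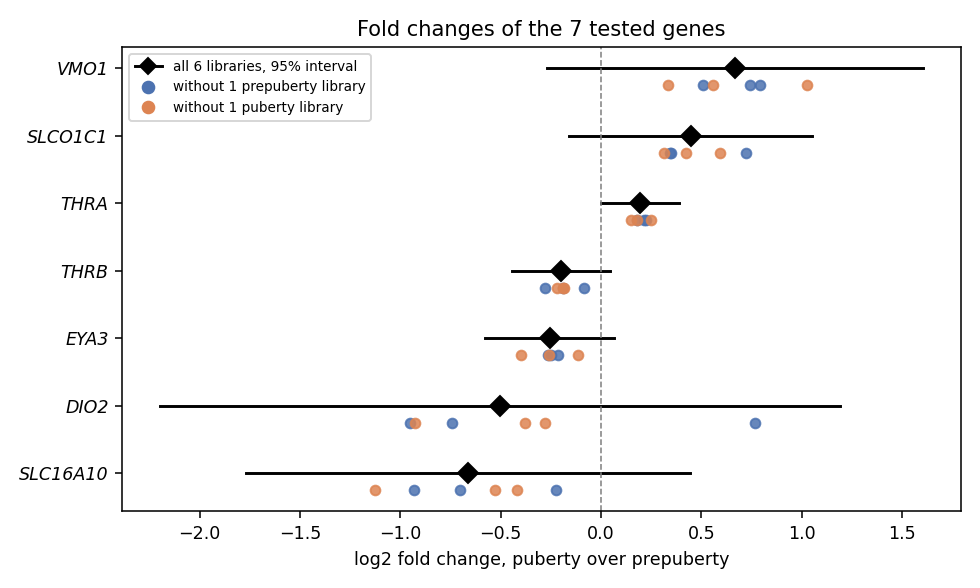
Log2 fold change (puberty over prepuberty) of the 7 tested genes: diamonds and lines are the estimate and 95% interval from all 6 libraries, circles below are the estimates without 1 prepuberty or 1 puberty library. Every interval reaches 0, and the sign turns only for DIO2, at 0.77 without prepuberty replicate 2.

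The genes whose profile over the 6 libraries was most like a member were looked up for the 3 members with the smallest p, among 11692 genes with a symbol and a mean of at least 1 CPM. For THRA they were GTPBP6, TIMM8B and USP35 (Pearson's r of log2 CPM 0.998, 0.996 and 0.995). For THRB they were GJA9, C16orf72 and RNF41 (0.977, 0.976 and 0.973), and for EYA3 they were RPTOR, EGFR and ADAT1 (0.997, 0.989 and 0.983). With 6 points such values are common: 153 genes exceeded an r of 0.95 with THRA, 19 with THRB and 45 with EYA3. Of the 9 genes named, TIMM8B alone was called (adjusted p = 0.0488).

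Some other genes of the route were called. Of 13 tested partners and coregulators of the thyroid hormone receptors, 6 fell in puberty and 0 rose, a share of 46.2% beside 5.64% of all tested genes; the list median was -0.31 on the log2 scale, beside 0.01. The groups did not overlap for 10 of the 13, or 76.9%, beside 34.8% of all tested genes. The list was chosen with earlier results of these data known, so these shares are not an independent test. The p160 coactivator gene NCOA3 was at 33.7, 33.5 and 36.6 CPM in prepuberty and at 24.5, 19.0 and 22.0 CPM in puberty, a 1.58-fold fall (log2 fold change -0.66, SE 0.12, adjusted p = 0.0152). NCOA2, of the same family, fell 1.38-fold from 239.9, 243.8 and 238.1 CPM to 186, 164 and 173 CPM (adjusted p = 0.0151). In both genes every puberty library lay below every prepuberty library. The acetyltransferase genes EP300 and CREBBP fell 1.34-fold and 1.32-fold (adjusted p = 0.0173 and 0.0164). The remaining 2 were TBL1XR1, a subunit of the NCOR corepressor complex (1.37-fold, adjusted p = 0.0302), and NCOA1 (1.32-fold, adjusted p = 0.0315), both named after their values were seen. For the corepressor gene NCOR1 the log2 fold change was -0.27 (adjusted p = 0.0626).

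These coregulator genes are long, with a median listed length of 4734 nt beside 1903 nt for all tested genes, and log2 fold change fell with listed length over all tested genes (rank correlation by Spearman's rho -0.28; genes are not independent). The list median became -0.21 with length-dependent offsets, and NCOA3 alone stayed called (log2 fold change -0.57, adjusted p = 0.0367); NCOA2 was then at -0.23 (adjusted p = 0.168). Without prepuberty replicate 1, none of the 13 was called, as was true of every gene in the table, and without puberty replicate 2 only NCOA2 and NCOA3 were. Markers of microglia moved alongside: all 9 had positive log2 fold changes (median 0.67), as did 8396 of all 16588 tested genes. Of the 9, 1 was called (TYROBP, 1.15, adjusted p = 0.0414), or 11.1% beside 5.85% of all tested genes called higher. Their summed levels were 132 to 178 CPM in prepuberty and 164 to 287 CPM in puberty. Their part, and that of the astrocyte markers, in the coregulator values was not tested. Coregulators serve many nuclear receptors and other factors, not those of thyroid hormone alone. Neither of the 2 retinoid X receptor genes measured, RXRG and RXRB, was called; RXRA was not analysed here. RXRG was abundant, above 97.2% of tested genes by FPKM, with a log2 fold change of 0.11 (adjusted p = 0.582), and RXRB had one of 0.13 (adjusted p = 0.386).

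**Figure D4:**
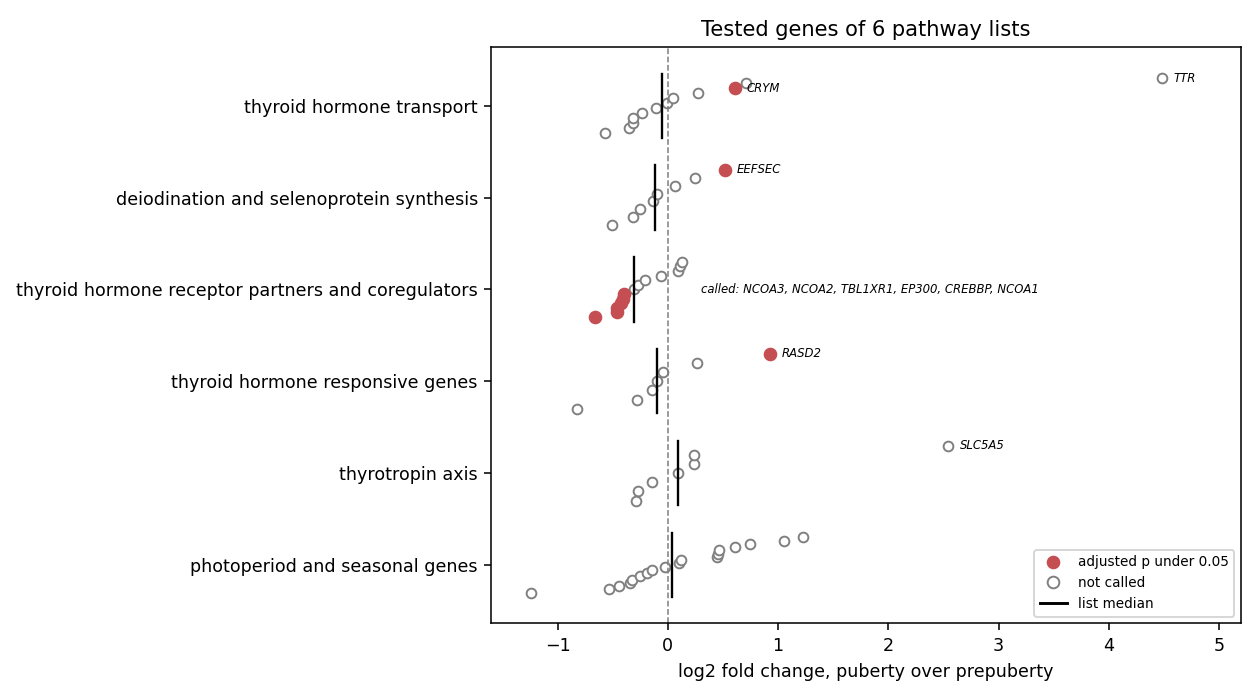
Log2 fold change (puberty over prepuberty) of each tested gene in 6 lists of related genes; filled points passed an adjusted p of 0.05, open points did not, and vertical lines are list medians. The 6 calls among receptor partners and coregulators all lie below 0, and the single calls of CRYM, EEFSEC and RASD2 lie above it.

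Of 12 tested genes of thyroid hormone transport and binding, 1 rose and 0 fell. This is 8.33%, beside 11.5% of all tested genes called in either direction and 5.85% called higher. The list median was -0.06. DESeq2, and edgeR without puberty replicate 1, called 1 gene of the list lower as well. The gene that rose was CRYM, which encodes a protein that binds triiodothyronine in the cytosol. CRYM was at 18.8, 21.4 and 23.7 CPM in prepuberty and at 30.3, 33.4 and 34.0 CPM in puberty, a 1.53-fold rise with groups apart (log2 fold change 0.61, SE 0.12, adjusted p = 0.0182). With length-dependent offsets it remained called (0.54, adjusted p = 0.0384), but the call was lost without puberty replicate 2 (0.60, adjusted p = 0.0551) or prepuberty replicate 1 (0.54, adjusted p = 0.0685). TTR, the thyroxine carrier made by the choroid plexus, had 188338 counts in puberty replicate 2 and 1534 to 9446 in the other 5 libraries (log2 fold change 4.48, adjusted p = 0.211, and 1.06 without that library).

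Of 8 tested genes of deiodination and selenoprotein synthesis, 1 rose and 0 fell. This is 12.5%, beside 11.5% of all tested genes called in either direction and 5.85% called higher. The list median was -0.12. EEFSEC, the elongation factor that inserts selenocysteine and so is needed to make deiodinases among other selenoproteins, rose 1.43-fold, from 26.3, 29.5 and 26.4 CPM to 37.9, 38.1 and 41.8 CPM (adjusted p = 0.0181, or 0.0227 with length-dependent offsets). It was not called without prepuberty replicate 1 or prepuberty replicate 3 (adjusted p = 0.0702 and 0.0573), nor by limma on log2(FPKM + 1) or log2(FPKM + 0.1) (adjusted p = 0.0545 and 0.0549). DIO1 was not called, with counts of 10, 11 and 16 in prepuberty and 6, 8 and 12 in puberty (log2 fold change -0.51, SE 0.47, adjusted p = 0.514).

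Of 7 tested genes that respond to thyroid hormone in rodents, 1 rose and 0 fell. This is 14.3%, beside 11.5% of all tested genes called in either direction and 5.85% called higher. RASD2, a small GTPase gene first described in rat striatum, was at 31.6, 42.6 and 22.0 CPM in prepuberty and at 62.7, 54.9 and 65.3 CPM in puberty. The groups were apart and the rise was 1.90-fold (log2 fold change 0.93, SE 0.22, adjusted p = 0.0388). This call was lost without any of prepuberty replicate 1 or puberty replicates 1, 2 and 3 (adjusted p = 0.119, 0.0967, 0.0811 and 0.0875) and without a count filter (adjusted p = 0.055). The widely used response genes KLF9 and HR were not called; on the log2 scale KLF9 differed by -0.04 (adjusted p = 0.85) and HR by -0.28 (adjusted p = 0.112). The list median was -0.10.

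The lists of the thyrotropin axis and of photoperiod had 0 calls by edgeR among 7 and 18 tested genes, beside 11.5% of all genes. An unadjusted p under 0.05 was found for 2 and 4 of them, beside 4807 of all 16588 tested genes. DESeq2 called 0 and 2. Their medians were 0.10 and 0.04. In the first, SLC5A5, the sodium iodide symporter, was at 0.823, 1.08 and 1.25 CPM in prepuberty and at 1.72, 15.3 and 1.54 CPM in puberty, with groups apart and puberty replicate 2 far above the rest. Its log2 fold change was 2.54 (adjusted p = 0.160), and 0.63 without that library. GNAQ, a G protein subunit, was at -0.27 on the log2 fold scale (adjusted p = 0.155). In the second, TAC3, which encodes neurokinin B, was counted 5, 11 and 8 times in the prepuberty libraries and 20, 14 and 23 times in the puberty libraries (log2 fold change 1.23, SE 0.44, adjusted p = 0.104). DBP, a transcription factor gene of the clock output, was at 0.61 on the log2 fold scale (adjusted p = 0.108, or 0.0152 with DESeq2). Its groups overlapped, and its log2 fold change was 0.39 without puberty replicate 2. DBP was called under 2 of 15 alternatives. The melatonin receptor gene MTNR1A had 0 counts in every library.

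**Figure D5:**
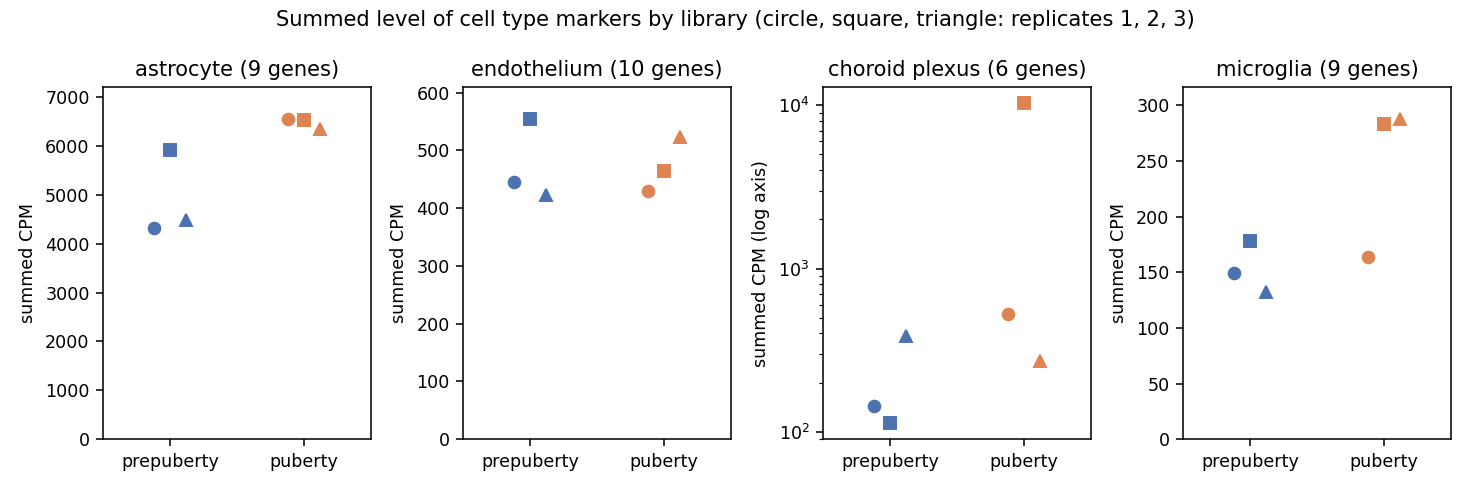
Summed CPM of measured markers of astrocytes, endothelium, choroid plexus (log axis) and microglia in each library; circle, square and triangle are replicates 1, 2 and 3. Summed astrocyte markers, mostly GFAP and ALDOC, are higher in each puberty library than in any prepuberty library, microglial sums overlap at 164 CPM in puberty replicate 1, and puberty replicate 2 stands apart in choroid plexus markers at 10282 CPM.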

How the data were processed

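RNA from pineal glands was extracted with TRIzol and made into libraries with a NEBNext Ultra kit, per the labels' protocols. The authors' deposited table of raw read counts holds whole numbers per gene without normalization; their deposited FPKM table holds the same counts divided by listed gene length and by one constant per library, which was not the column total. Per the submitters' processing notes, which give no roles, the aligner HISAT2 2.0.5, the counter featureCounts 1.5.0-p3, CASAVA 1.8, DESeq2 1.20.0 and fastp were used. The builds named there are GRCh38 and hg38, although the gene identifiers are those of goat. All 8 measured genes were found by symbol in a RefSeq goat gene table (ARS1.2). No genome, promoter or protein sequence was used here.

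Counts were filtered with filterByExpr (minimum count 10), scaled by TMM and fitted over the whole table with edgeR 4.0.16 in R 4.3.3 (robust quasi-likelihood F test, no covariate). A gene was called when its Benjamini-Hochberg adjusted p over 16588 genes was under 0.05. All single-gene p-values are from this fit unless another is named. Standard errors were derived from each F statistic and fold change, intervals cover 95%, and log2 CPM used a prior count of 2. Ratios were tested by exact permutation over 6 libraries; DIO2 to DIO3 could not be computed. Precision rests on the total counts, 18864451 to 20971065 per library, and on the spread between libraries.

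Genes named besides the members were, for each list, up to 4 called genes with the smallest p, or 2 where none was called, and for 3 members the 3 most similar profiles. Others named were chosen after their values were seen: NCOR1, RXRG, RXRB, TTR, DIO1, KLF9, HR, TEF, the other EYA genes, SIX5, NR1D1, TM4SF5, MTNR1A and the marker genes. The members and lists were chosen with earlier results of these data known. Alternatives were RLE scaling, no filter, a filter of 1 CPM in at least 3 libraries, limma-voom (limma 3.58.1), DESeq2 1.42.0, a replicate block, length-dependent offsets (loess of log2 CPM deviations on log length), limma on log2(FPKM + 1) and log2(FPKM + 0.1), which understate changes of low genes, and leaving out each library.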

Additional observations from a re-analysis of the deposited data

How the results depend on the processing

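The 7 tested members had 0 calls in either direction under every alternative. DIO2, not testable at 1 CPM in 3 libraries and without an adjusted p in DESeq2, ran from -0.95 to 0.77 (log2) as single libraries were left out; it was the only member whose sign turned. Over the whole table, 971 genes were called higher and 935 lower. These counts were 366 and 354 with a replicate block and 447 and 428 with length-dependent offsets, and ran from 0 to 728 and from 0 to 540 as single libraries were left out. Without prepuberty replicate 1, 3924 genes had an unadjusted p under 0.05; DESeq2 on all libraries called 1400 and 1303. Same-numbered libraries did not deviate together (correlations of 0.05, -0.10 and -0.10 across genes). The labels state no pairing, and the block served only as an alternative. With the block 2 of the 6 coregulator calls, NCOA2 and NCOA3, and CRYM were kept. EEFSEC and RASD2 were then not called (adjusted p = 0.0526 and 0.0772). By CPM in place of FPKM, THRB ranked above EYA3 and DIO2 last of the 7. The causes were not tested. Low counts limit DIO2, SLC16A10 and TSHR.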

Other observations

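The large neutral amino acid transporter that also carries thyroid hormone was well expressed. Its subunits SLC7A5 and SLC3A2 were at 94.0 and 120 FPKM over the 6 libraries, with log2 fold changes of -0.24 (SE 0.14, adjusted p = 0.306) and 0.05 (SE 0.15, adjusted p = 0.856), and neither was called. SLCO1A2, an organic anion transporter, was counted 357, 315 and 302 times in the prepuberty libraries and 252, 161 and 248 times in the puberty libraries, with groups apart (log2 fold change -0.57, SE 0.17, adjusted p = 0.0644). WSB1 and USP33, which act on the ubiquitination of the DIO2 protein and so on its lifetime, were at 76.9 and 16.9 FPKM. DIO2 itself was at 0.808 FPKM, a level that depends on its listed gene model. The log2 fold changes of WSB1 and USP33 were -0.26 (SE 0.09, adjusted p = 0.105) and -0.10 (SE 0.12, adjusted p = 0.617). Protein was not measured. These genes were picked from the lists after their values were seen.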
